A study of Bos indicus and Bos taurus with 17 samples.

Results

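The nuclear genes that encode subunits of the mitochondrial respiratory chain were described in milk cells captured as epithelial from 2 cattle breeds, Kashmiri and Jersey, at 3 stages of lactation. Members were chosen by name alone: NDUFA, NDUFB, NDUFC, NDUFS and NDUFV genes for complex I, SDHA to SDHD for complex II, UQCR genes for complex III, COX4 to COX8 genes for complex IV and ATP5 genes for complex V. The rule gave 61 genes of 21631 distinct names in the table. Complex I had 29 of them, complex II 3, complex III 6, complex IV 11 and complex V 12. SDHD had no entry of that name and was not analysed here. The measured values played no part in the rule, except that the entry with the highest mean was taken for the 3 members whose name occurred more than once.

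The respiratory chain sits in the inner mitochondrial membrane. Complex I and complex II feed electrons from NADH and succinate into the ubiquinone pool, complex III passes them to cytochrome c, and complex IV hands them to oxygen, while complex V uses the resulting proton gradient to make ATP. Its subunits come from both genomes, and the nuclear ones treated here are translated in the cytosol and imported. In the lactating mammary epithelium the ATP drives the synthesis and secretion of milk protein, lactose and fat.

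RNA was sequenced from cells of fresh milk of Kashmiri cattle, a local breed, and of Jersey cattle, a dairy breed, at day 15 (D15, early), day 90 (D90, mid) and day 250 (D250, late) in milk. The labels name 17 samples, 3 for each breed and stage and 2 for Jersey at D90, from cows in lactation 2 or 3, without added treatment. Per the study's methods, 3 cows of each breed were milked at all 3 stages, so the stage groups of a breed are not separate animals. Samples of D15 were taken in March, of D90 in July and of D250 in December, so stage and season cannot be told apart. Per the study's methods, cells were captured with beads carrying an antibody against keratin 18. Each group of breed and stage has 1 value per gene, an FPKM computed by the authors (sequenced fragments scaled to transcript length and to the library's mapped reads). There is therefore no spread between cows, no error and no test anywhere below, and a difference is a difference between 2 group values only. FPKM are per length, so the levels of different genes can be set side by side.

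The label of the cells was checked against marker genes. Of 14 epithelial markers 13 were found, and their summed level was 6011 FPKM at Kashmiri D15, 738.9 at D90 and 2701 at D250, against 2745, 104 and 1436 in Jersey cattle. KRT18, the keratin used for capture, was at 51.3, 9.13 and 11.5 FPKM in Kashmiri and at 33.7, 1.59 and 4.51 in Jersey cattle at D15, D90 and D250. White blood cell markers were present in every group. The 9 neutrophil markers found summed to 183 to 617 FPKM in the 3 Kashmiri groups and to 5012 to 14387 in the 3 Jersey groups, and none was listed at 0. The 10 T and NK cell markers summed to 1659 FPKM at Kashmiri D90 and to 105 to 407 in the other 5 groups, the 10 macrophage markers to 109 to 2146, and the red blood cell markers to less than 1 FPKM in every group. In the 3 Jersey groups the neutrophil sum was above the epithelial sum, at Jersey D90 with 5825 against 104 FPKM. At Kashmiri D90 the T and NK cell sum was above it. The label of epithelial cells is therefore in doubt for these groups, although sums of marker lists are not shares of cells. The study's own quantitative PCR on D90 samples found KRT18 and CSN2 higher in captured cells than in milk cells before capture. LSP1, HBA and CD18, its markers of other cells, were lower, and the paper proposes minimal contamination. That comparison with cells before capture gives no shares of cells either. Epithelial and white cell RNA thus moved with both stage and breed. Their part in the results below was not tested, and in such bulk samples fewer cells of a type and less RNA per cell cannot be told apart.

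Of the 61 members, 56 had at least 1 FPKM in every group and 2, COX6A2 and COX6B2, in none. The other 3 were NDUFA4L2, COX4I2 and ATP5S. The median over all members was 143, 82.2 and 95.5 FPKM in Kashmiri and 126, 81.0 and 72.4 FPKM in Jersey cattle at D15, D90 and D250. Together the members held 1.18%, 1.13% and 1.64% of the summed FPKM of all named entries in Kashmiri and 1.36%, 1.25% and 0.986% in Jersey cattle. For 1 complex I member the value also covers another gene, and it is included in the counts and medians. Without it the shares were 1.16%, 1.10% and 1.59% in Kashmiri and 1.32%, 1.05% and 0.74% in Jersey cattle. Its removal lowered the number of members 2-fold higher from 3 to 2 at Jersey D90 over D15 and at Jersey over Kashmiri D90, and from 4 to 3 at Jersey D250 over D15 and at Jersey over Kashmiri D250. No count of lower members changed, and the median log2 ratio was -0.76 at Jersey D250 over D15 and -0.61 at Jersey over Kashmiri D250 without it. Among the 56 genes, Kashmiri D15 was the highest group for 31 and Jersey D250 the lowest for 31. The second count became 40 when each group was rescaled to the same sum and 41 when rescaled to the same upper quartile. The first count became 1 under the sum, where Kashmiri D250 was highest for 34 genes, and 29 under the upper quartile. The same counts over all genes are not given, so these are not read as particular to the members. Kashmiri D15 also had the largest summed FPKM of all named entries, 969227, against 490166 to 814682 in the other groups.

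**Figure D1:**
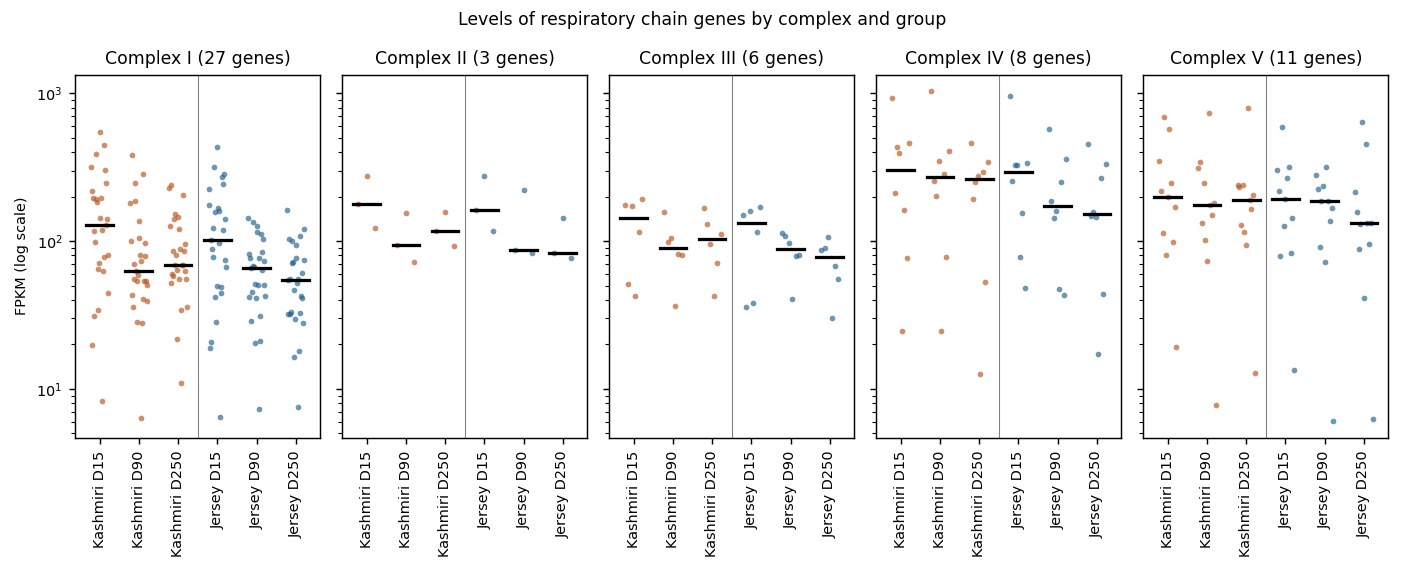
FPKM (log scale) of 55 of the 56 genes with at least 1 FPKM in every group, by complex; each point is a gene, the black bar the median, orange the Kashmiri and blue the Jersey groups. The median of complex I ran from 127.5 FPKM at Kashmiri D15 to 54.1 at Jersey D250, while that of complex V ran from 197 to 132.

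Between D15 and D90 most members were lower at D90 in both breeds. The comparison took members that reached 1 FPKM in either group and were above 0 in both, on log2(FPKM + 1), and counted differences of 2-fold or more. In Kashmiri cattle 14 of 57 members (24.6%) were at least 2-fold lower at D90, against 18.6% of all genes compared, and 1 was 2-fold higher, against 14.5%. In Jersey cattle 16 of 58 (27.6%) were lower, against 16.8% of all genes, and 3 were higher, against 12.6%. The median log2 ratio of the members was -0.47 in Kashmiri and -0.48 in Jersey cattle, which is 0.46 and 0.41 under the median of all genes. With groups rescaled to the same sum, the split in Kashmiri cattle became 4 higher (20.5% of all genes) and 7 lower (13.3% of all genes). In Jersey cattle it became 5 higher (18.1%) and 8 lower (12.3%). The members' median relative to all genes then stood at -0.42 and -0.39. Rescaling multiplies all genes of a group by 1 factor, so this gap is nearly fixed in advance.

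The 14 genes 2-fold lower at D90 in Kashmiri cattle were all 2-fold lower in Jersey cattle too. They make up 24.6% of the 57 members compared in both breeds, where 10.9% of all genes were 2-fold lower in both. The breeds share no sample, and each stage fell in the same season in both. From complex I they were NDUFA10, NDUFB2, NDUFB7, NDUFB9, NDUFB11, NDUFS3, NDUFS6, NDUFS8 and NDUFV1. UQCRQ of complex III, COX6B1 of complex IV, and ATP5D, ATP5G1 and ATP5SL of the ATP5 genes completed the group. ATP5SL, named after ATP synthase, is now known as the complex I assembly factor DMAC2. Jersey cattle added NDUFS5 and COX6C.

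NDUFS6, an accessory subunit of the NADH-oxidising arm of complex I, was the member with the lowest ratio at D90 over D15 in both breeds. It stood at 302, 53.5 and 68.9 FPKM in Kashmiri and at 243, 63.5 and 42.6 FPKM in Jersey cattle at D15, D90 and D250. The D15 group of each breed was far above the later stages, with log2 ratios at D90 of -2.47 and -1.92. MRPL36, a mitochondrial ribosomal protein gene next to NDUFS6 in the RefSeq gene order of another cattle assembly, was singled out after its values were seen: it stood at 247, 50.4 and 47.5 FPKM in Kashmiri and at 173, 33.3 and 25.2 FPKM in Jersey cattle.

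NDUFB7, an accessory subunit of the membrane arm, had 550.3, 137.5 and 145.5 FPKM from D15 to D250 in Kashmiri and 433, 116 and 76.8 FPKM in Jersey cattle. ATP5D, the delta subunit of the F1 part of ATP synthase, had 689.9, 245.5 and 239 FPKM in Kashmiri and 592, 187 and 129 FPKM in Jersey cattle. In both genes D15 was highest in each breed, D90 and D250 lay close together in Kashmiri cattle, and Jersey D250 was the lowest of all groups. NDUFB7 and ATP5D had log2 ratios of -1.99 and -1.49 at Kashmiri D90 over D15 and of -1.89 and -1.66 in Jersey cattle.

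A smaller set was higher at D90 in both breeds, among them NDUFA5 and NDUFA12 of complex I, UQCRB of complex III, COX7A2 of complex IV, and ATP5B, ATP5C1, ATP5F1, ATP5G2, ATP5J and ATP5J2 of complex V. The set had 11 of 57 members, while 35 were lower in both and 11 moved in opposite directions. Of 10382 genes of all kinds compared in both breeds, 3554 were higher in both, 3967 lower in both and 2861 opposite. NDUFA12, an accessory subunit of complex I, was the member with the highest ratio in Kashmiri cattle, at 19.8, 43.1 and 52.0 FPKM, and had 19.0, 42.1 and 32.2 FPKM in Jersey cattle. UQCRB, which lies near the ubiquinone site of complex III, had 51.3, 98.6 and 131 FPKM in Kashmiri and 35.5, 108 and 89.2 FPKM in Jersey cattle. Both genes were lowest at D15 in each breed, opposite to most of their complex.

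**Figure D2:**
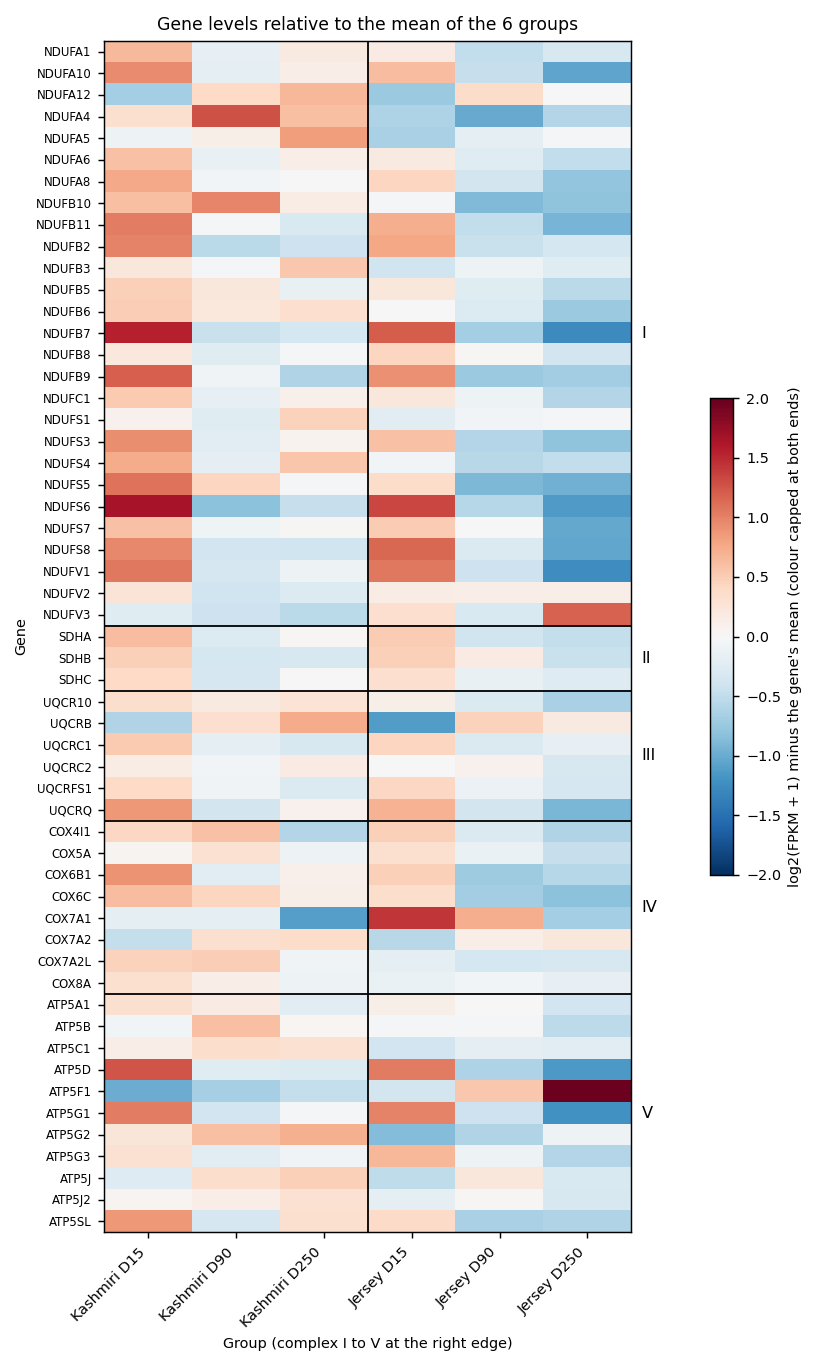
Each row is 1 of 55 genes, grouped by complex, and each column a group; colour gives log2(FPKM + 1) minus the gene's mean over the 6 groups. Both D15 columns are red for most complex I genes and all 3 complex II genes, Jersey D250 is blue for most rows, and NDUFV3 and ATP5F1 are red at Jersey D250.

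From D90 to D250, in Kashmiri cattle the members' median log2 ratio was 0.11, with none 2-fold higher (background 8.81%) and 1 of 57 lower (background 8.66%). That gene was COX4I1, the common form of subunit 4 of cytochrome c oxidase, at 923, 1034 and 462 FPKM from D15 to D250 in Kashmiri and at 958, 568 and 456 FPKM in Jersey cattle. With the sum held equal, 14 members were 2-fold higher, where 27.1% of all genes were, and 0 lower, where 2.44% were, and the median was 0.18 above that of all genes in place of 0.08. NDUFS4, an accessory subunit needed for a complete complex I, had the highest ratio, with 78.3, 40.6 and 68.7 FPKM in Kashmiri and 44.7, 31.4 and 32.8 FPKM in Jersey cattle. In Jersey cattle the median was -0.26, or 0.41 under all genes. There 3 of 59 members were 2-fold higher (background 16.5%) and 2 lower (background 3.95%), with 8 lower under the sum (background 9.38%) and 5 under the upper quartile (background 6.4%).

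Over the whole span from D15 to D250, 10 of 57 members were 2-fold lower in Kashmiri cattle, against 14.3% of all genes, and 2, NDUFA12 and UQCRB, were higher, against 11.0%. This split depended on scaling: with the sum held equal 14 members were higher and 1 lower, where 39.6% and 2.46% of all genes were. With the upper quartile held equal 4 were higher and 7 lower, where 15.4% and 10.1% of all genes were. Relative to the median of all genes the members' median was -0.43 as deposited, -0.27 and -0.41. In Jersey cattle 20 of 58 members (34.5%) were 2-fold lower, against 17.7% of all genes, and 4 were higher, against 24.4%. Their median log2 ratio was -0.75, and 0.83 under that of all genes. After both rescalings this gap was 0.84, but 1 factor per group leaves it nearly fixed in advance. Of 57 members compared in both breeds, 40 were lower and 13 higher at D250 in both. Of 10624 genes of all kinds, 3984 were lower and 3823 higher in both.

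**Figure D3:**
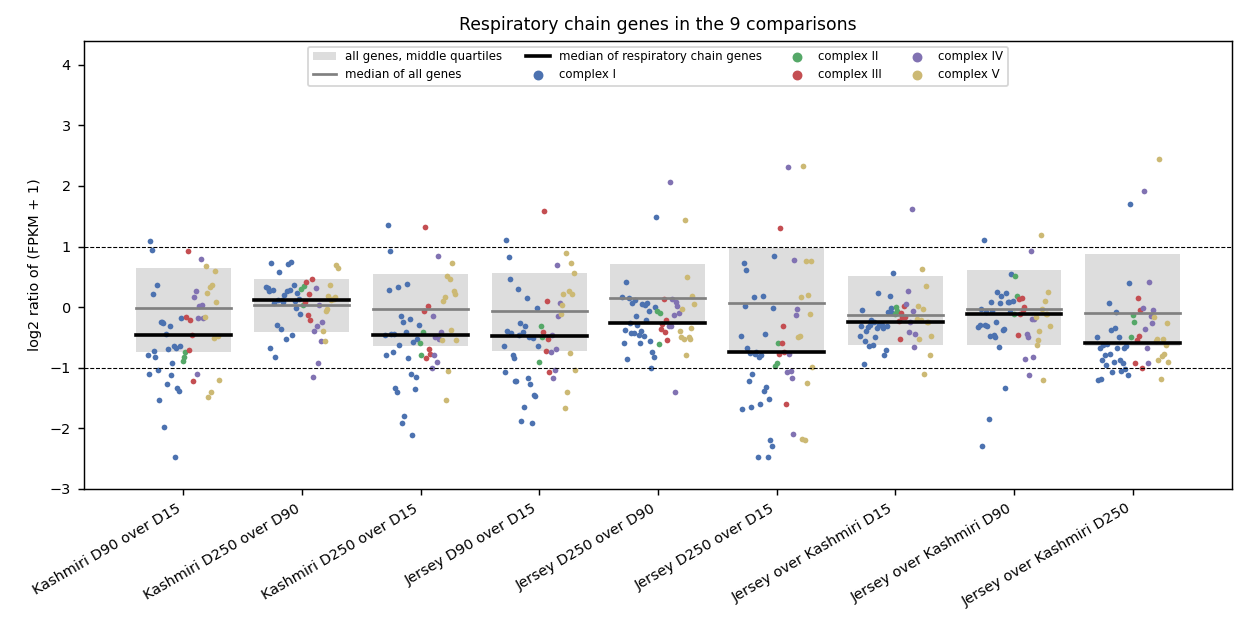
log2 ratio of (FPKM + 1) of all members but 1 in the 9 comparisons, coloured by complex, with the black bar at the members' median and the grey band spanning the middle quartiles of all genes. The members' median lies under that of all genes in every comparison except Kashmiri D250 over D90, and is lowest, at -0.75, for Jersey D250 over D15.

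The medians differed between complexes, with no test of that difference. Median log2 ratios at D90 over D15 in Kashmiri cattle were -0.68 for complex I, -0.83 for complex II, -0.34 for complex III, 0.02 for complex IV and -0.04 for complex V. In Jersey cattle they were -0.51, -0.49, -0.47, -0.58 and 0.12. Complex V thus had the highest median in Jersey cattle and complexes IV and V the highest in Kashmiri cattle. Ratios within a group do not change with its scaling. Over the genes with at least 1 FPKM in every group, the median of complex V divided by that of complex I was 1.47 at Kashmiri D15, 2.61 at D90 and 2.55 at D250, and 1.73, 2.81 and 2.42 in Jersey cattle. Complex IV over complex I was 2.25, 4.03 and 3.53 in Kashmiri and 2.63, 2.59 and 2.80 in Jersey cattle.

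The core subunits of complex I made in the nucleus carry the flavin and the iron-sulfur clusters. NDUFV1, which binds NADH and FMN, had 142, 53.4 and 62.8 FPKM in Kashmiri and 141, 50.4 and 28.1 FPKM in Jersey cattle. NDUFS8, an iron-sulfur subunit on the path to ubiquinone, had 247.5, 97.1 and 96.3 FPKM in Kashmiri and 282, 103 and 61.3 FPKM in Jersey cattle. NDUFS3, a core subunit of the connecting arm, had 62.3, 27.9 and 34.1 FPKM in Kashmiri and 48.9, 21.1 and 18.1 FPKM in Jersey cattle. As deposited, all 3 were highest at D15 in each breed and lowest at Jersey D250. With groups rescaled to the same sum, the log2 ratio of NDUFS3 at Kashmiri D250 over D15 turned from -0.85 to 0.14.

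NDUFS7, which holds the last iron-sulfur cluster before ubiquinone, had 127.5, 79.3 and 85.2 FPKM in Kashmiri and 119.5, 83.8 and 41.1 FPKM in Jersey cattle. NDUFV2, with a cluster beside the flavin, had 80.2, 50.6 and 55.7 FPKM in Kashmiri and between 73.9 and 75 FPKM at all Jersey stages. NDUFS1, the largest iron-sulfur subunit, was at 6.37 FPKM in its lowest group, Kashmiri D90, and 11 FPKM in its highest, Kashmiri D250. It was the lowest of the complex I genes that had at least 1 FPKM everywhere, while its partners NDUFV1 and NDUFV2 were above 28 FPKM in every group.

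NDUFS5 and NDUFB11, small subunits of the membrane arm, were among the abundant members. NDUFS5 had 447, 286 and 206 FPKM in Kashmiri and 272, 112.5 and 108 FPKM in Jersey cattle, higher in Kashmiri cattle at every stage. NDUFA10, an accessory subunit of the membrane arm, had 219.6, 101 and 125.5 FPKM in Kashmiri and 176, 82.4 and 54.1 FPKM in Jersey cattle. It had the lowest ratio of all members for Jersey over Kashmiri at D250, -1.20.

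Complex II, succinate dehydrogenase, is made only by the nucleus and is also an enzyme of the tricarboxylic acid cycle. SDHA, its flavin subunit, had 177, 94.8 and 117 FPKM in Kashmiri and 163, 87.0 and 82.6 FPKM in Jersey cattle. SDHB, its iron-sulfur subunit, had 275, 154 and 157 FPKM in Kashmiri and 274, 220 and 144 FPKM in Jersey cattle. SDHC, a membrane anchor, had 122, 72.7 and 92.0 FPKM in Kashmiri and 117, 82.7 and 77.3 FPKM in Jersey cattle. As deposited, all 3 were highest at D15 in each breed, and none passed 2-fold in any of the 9 comparisons. Both statements depended on scaling. With groups rescaled to the same sum, the log2 ratios at Kashmiri D250 over D15 were 0.41, 0.21 and 0.59 for SDHA, SDHB and SDHC. At Jersey D250 over D15, SDHA stood at -1.12 and SDHB at -1.07 in both rescalings.

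In complex III, UQCR10, UQCRC1 and UQCRQ had the highest means. UQCRC1, a core protein facing the matrix, had 172, 105 and 95.5 FPKM in Kashmiri and 161, 96.7 and 106 FPKM in Jersey cattle. UQCRQ, a small subunit next to cytochrome b, had 192, 81.0 and 111 FPKM in Kashmiri and 171, 81.0 and 55.2 FPKM in Jersey cattle. UQCR10, another small subunit, had 176, 157 and 167 FPKM in Kashmiri and 150.4, 113 and 87.6 FPKM in Jersey cattle. As deposited, all 3 were highest at D15 in each breed. With groups rescaled to the same sum, the log2 ratios at Kashmiri D250 over D15 were 0.93, 0.16 and 0.22 for UQCR10, UQCRC1 and UQCRQ. UQCRC2, the other core protein and the least abundant of the complex, moved little, between 30.3 and 42.7 FPKM over the 6 groups. CYC1, cytochrome c1 of the same complex, is outside the name rule and stood at 123, 76.6 and 62.4 FPKM in Kashmiri and 160.5, 77.5 and 44.4 FPKM in Jersey cattle.

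Complex IV held the gene with the highest mean, COX4I1, and several subunits with alternative genes. COX8A ranged from 332 to 462 FPKM and COX6C from 145 to 392 FPKM over the groups. COX4I2, the form linked to low oxygen, was at 0.0055, 0.032 and 0.538 FPKM in Kashmiri and 0.173, 0.394 and 4.82 FPKM in Jersey cattle, and entered a comparison only through Jersey D250. COX6A2, the heart and muscle form of subunit 6A, was listed at 0 at Kashmiri D15 and was at 0.0507 to 0.23 FPKM elsewhere. COX6B2, a testis form, was at 0.0252 to 0.185 FPKM, while COX6B1 ran from 143 to 436 FPKM.

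COX7A1, the heart and muscle form of subunit 7A, and COX7A2, the form of most other tissues, moved apart. COX7A1 had 24.6, 24.8 and 12.7 FPKM in Kashmiri and 77.9, 47.7 and 17.4 FPKM in Jersey cattle. COX7A2 had 163, 284.5 and 293 FPKM in Kashmiri and 154.5, 249.7 and 267 FPKM in Jersey cattle. The share of COX7A1 in their sum was 13.1%, 8.02% and 4.14% in Kashmiri and 33.5%, 16.0% and 6.11% in Jersey cattle, lower at each later stage and higher in Jersey cattle at each stage. COX7A2L, a related factor that joins complex III and complex IV into supercomplexes, stayed between 43.3 and 78.0 FPKM.

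The c subunit of the ATP synthase rotor comes from ATP5G1, ATP5G2 and ATP5G3, which encode the same mature protein behind different import sequences. ATP5G1 had 197, 73.5 and 94.7 FPKM in Kashmiri and 191.5, 72.1 and 41.0 FPKM in Jersey cattle. ATP5G2 had 571, 735 and 792.5 FPKM in Kashmiri and 265, 318 and 450.1 FPKM in Jersey cattle, higher in Kashmiri cattle at every stage. ATP5G3 had 249, 174 and 191 FPKM in Kashmiri and 317, 187 and 133 FPKM in Jersey cattle. The share of ATP5G2 in their sum was 56.1%, 74.8% and 73.5% in Kashmiri and 34.3%, 55.1% and 72.1% in Jersey cattle, and that of ATP5G1 was 19.4%, 7.48% and 8.78% and 24.7%, 12.5% and 6.58%. Both breeds thus had more of ATP5G2 and less of ATP5G1 after D15. The study dropped reads that aligned to several places, so stretches these genes share with each other or with copies elsewhere may be undercounted, and the levels and shares of such genes are uncertain to that extent.

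**Figure D4:**
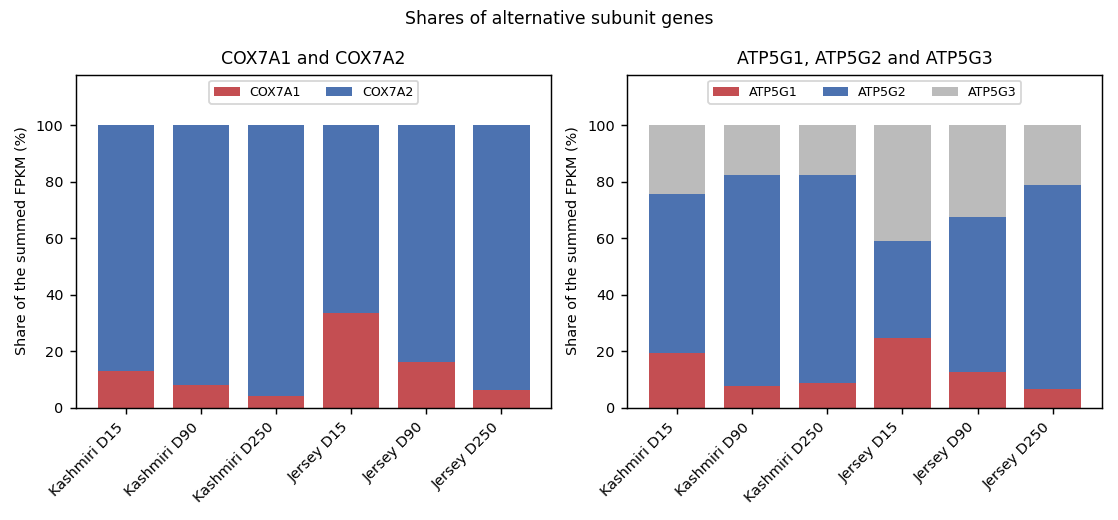
Share (%) of each gene in the summed FPKM of COX7A1 and COX7A2 (left) and of ATP5G1, ATP5G2 and ATP5G3 (right) in the 6 groups. The share of COX7A1 is highest at Jersey D15, 33.5%, and that of ATP5G2 lowest there, 34.3%.

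Among the other complex V genes, the catalytic F1 subunits were abundant. ATP5A1, the alpha subunit, had 349, 313 and 239 FPKM in Kashmiri and 303, 279 and 213 FPKM in Jersey cattle. ATP5B, the beta subunit, had 217, 345 and 233 FPKM in Kashmiri and 219, 224 and 157 FPKM in Jersey cattle. These 2 subunits lie in the same hexamer. As deposited, the former was highest at D15 and the latter at D90 in each breed. The log2 ratios at D90 over D15 were -0.16 in Kashmiri and -0.12 in Jersey cattle for ATP5A1. For ATP5B they were 0.67 and 0.03. With groups rescaled to the same sum, ATP5A1 turned to 0.16 and 0.15, so its direction depended on scaling. ATP5S, named as a coupling factor and now known as DMAC2L, was at 0.799 to 2.65 FPKM. Both ATP5S and ATP5SL are counted to complex V here by name alone, and its medians were not recomputed without them.

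ATP5F1, the b subunit of the stalk that holds the F1 part in place, was far above the other groups at Jersey D250. It had 81.0, 102 and 116 FPKM in Kashmiri and 126, 235 and 635 FPKM in Jersey cattle. The log2 ratio of Jersey over Kashmiri was 0.63, 1.19 and 2.44 at the 3 stages. NDUFV3, a small subunit near the NADH site of complex I, had 44.6, 39.3 and 36.0 FPKM in Kashmiri and 66.5, 42.3 and 120 FPKM in Jersey cattle, again highest at Jersey D250. ATP5F1, NDUFV3 and UQCRB are outside the rule for named genes and were singled out after their values were seen. WDR77, next to ATP5F1 in the RefSeq gene order, was likewise singled out after its values were seen. It had 7.13, 4.16 and 6.95 FPKM in Kashmiri and 12, 13.6 and 41.4 FPKM in Jersey cattle. At Jersey D250 over D15, 24.4% of all genes were 2-fold higher. TECR, next to NDUFB7, did not follow it, with log2 ratios at D90 over D15 of 0.12 in Kashmiri and -0.07 in Jersey cattle. Neighbours that moved with or against their member were not counted.

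Between the breeds, 1 of 57 members was 2-fold higher in Jersey cattle at D15 (background 15.8%) and 1 lower (background 12.8%), namely COX7A1 and ATP5G2. The median log2 ratio was -0.25, or 0.12 under all genes, and the split was 3 to 0 under the sum (all genes 20.9% and 6.76%) and 1 to 2 under the upper quartile (14.9% and 14.3%). At D90, 3 of 58 were higher (background 16.8%) and 5 lower (background 15.7%), with a median of -0.12. The higher ones included ATP5F1 and NDUFA4L2, which reached 1 FPKM only at Jersey D90 and so was compared only because it was high there, and the lower ones NDUFA4, NDUFB10, NDUFS5, COX6C and ATP5G2. Under the sum, 4 were higher and 2 lower, where 22.7% and 11.6% of all genes were. Members past 2-fold between breeds at D15 and D90 were therefore a smaller share than among all genes.

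NDUFA4, long counted to complex I and now assigned to complex IV, had the lowest ratio between breeds at D90. It had 196.5, 381 and 239 FPKM in Kashmiri and 102, 77.2 and 104 FPKM in Jersey cattle. Kashmiri cattle were higher at every stage, and the log2 ratio of Jersey over Kashmiri at D90 was -2.29. Its relative NDUFA4L2 was at 0.0912 to 0.578 FPKM in Kashmiri and at 0.810 to 2.28 FPKM in Jersey cattle. NDUFB10, another small membrane arm subunit, had 192, 248 and 140.4 FPKM in Kashmiri and 122, 68.0 and 71.6 FPKM in Jersey cattle. At Kashmiri D90, where both were highest, the T and NK cell markers also had their highest sum, and their part was not tested.

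At D250 the members were lower in Jersey than in Kashmiri cattle for 50 of 58. The median of all genes was itself -0.10, so at least 50% of all genes were lower too, and the count depends on scaling. The median of all genes was -0.74 with the sum and -0.47 with the upper quartile held equal. The median log2 ratio of the members was -0.59, or 0.49 under all genes. Past 2-fold, 8 were lower (13.8%, background 11.5%) and 4 higher (6.90%, background 22.7%). The lower ones were NDUFA4, NDUFA10, NDUFB6, NDUFS4, NDUFS7, NDUFV1, UQCRQ and ATP5G1, and the higher ones included NDUFV3, COX4I2 and ATP5F1. COX4I2 was likewise compared only because it was high at Jersey D250. The count lower was 42 with the sum held equal, where 37.1% of all genes were lower, and 29 with the upper quartile held equal, where 24.2% were. In these 2 scalings the median stood 0.60 and 0.55 under all genes. Neutrophil marker sums were 617 FPKM in Kashmiri and 14387 FPKM in Jersey cattle at this stage, and their part was not tested.

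**Figure D5:**
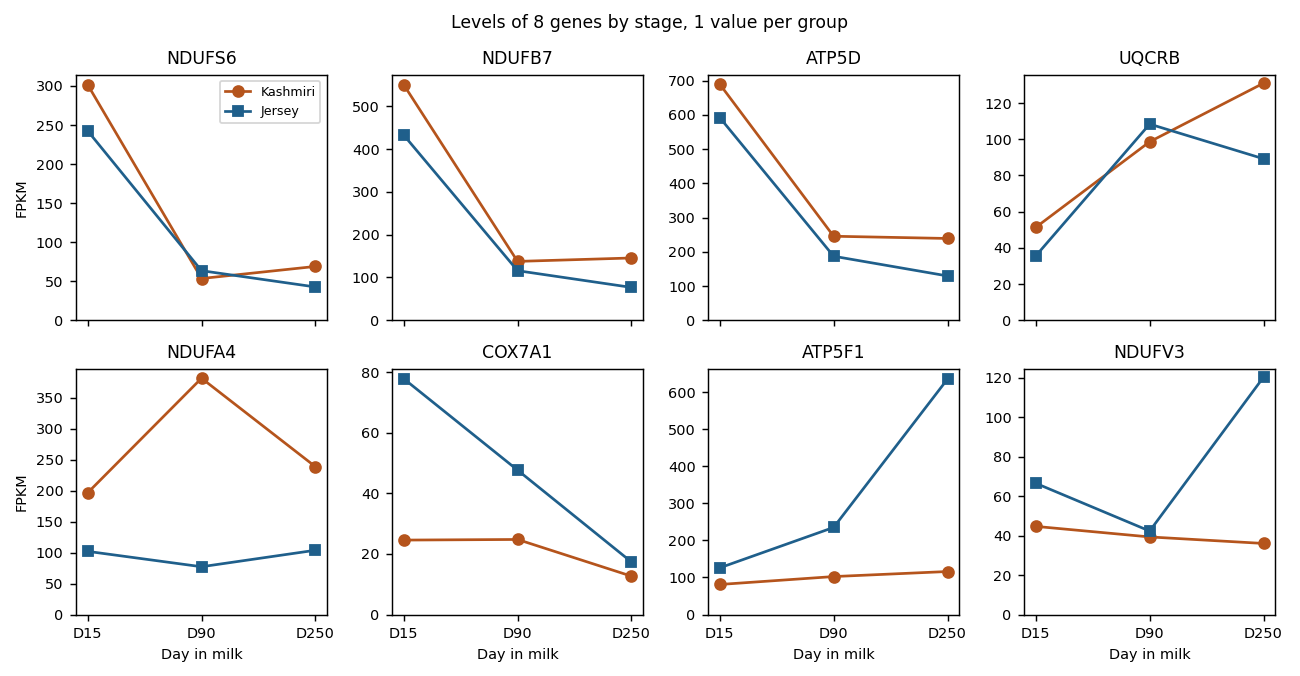
FPKM by day in milk for 8 genes in Kashmiri (orange) and Jersey (blue) cattle, 1 authors' value per group; vertical axes start at 0 and differ between panels. NDUFS6, NDUFB7 and ATP5D are highest at D15 in both breeds, NDUFA4 is higher in Kashmiri cattle throughout, COX7A1 is highest at Jersey D15, and ATP5F1 and NDUFV3 are highest at Jersey D250.

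Other modules of the cell were set beside the respiratory chain genes. Mitochondrial ribosomal proteins (70 genes found) had median log2 ratios of -0.70 at Kashmiri D90 over D15, -0.78 at Jersey D90 over D15 and -0.91 at Jersey D250 over D15. Proteasome subunits (38 genes) had -0.26, -0.19 and -0.48, and cytosolic ribosomal proteins (50 genes) -0.32, -1.23 and -1.02. The respiratory chain medians of -0.47, -0.48 and -0.75 lay between those of mitochondrial ribosomal proteins and of the proteasome each time. For Jersey over Kashmiri at D90 the cytosolic ribosomal proteins stood at -2.00, far below the -0.12 of the respiratory chain genes. These differences between lists were not tested.

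Assembly factors build the complexes without being part of them. Of 38 compared at Kashmiri D90 over D15, 8 were 2-fold lower (18.6% of all genes) and 2 higher (14.5%), with a median of -0.50. In Jersey cattle 8 of 38 were lower (16.8%) and 0 higher (12.6%), with a median of -0.41. Enzymes of the tricarboxylic acid cycle (13 genes) had medians of -0.12 and 0.29 in the same comparisons. CS, citrate synthase, had 14.6, 27.5 and 33.4 FPKM in Kashmiri and 16.5, 29.8 and 28.9 FPKM in Jersey cattle. As deposited it was lowest at D15 in each breed, whereas SDHA was highest there.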

How the data were processed

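The deposited table holds the authors' FPKM, 1 value per gene entry and group of breed and stage, with Kashmiri columns headed Local. Per the study's methods, libraries were stranded and poly-A selected, reads were trimmed, aligned and spliced, and Cufflinks and Cuffdiff assembled and quantified them. The submitters' processing notes name Bowtie2 (version 2) and the bovine build UMD 3.1. Depth per library is not in the FPKM, so no interval or count of reads is given, and gene coordinates were not used here. Of 61264 entries, 25121 carry a name. Names joined by commas were split and each part searched.

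Log2 ratios used a pseudocount of 1 FPKM, which understates changes of low genes, and genes with at least 1 FPKM in either group and none at 0. A gene was counted from 2-fold. Values were computed with Python 3.11.15, numpy 2.4.6 and pandas 2.3.3 (figures: matplotlib 3.10.9), and the scripts were tested on simulated data. With 1 value per group no test was run. The authors' own comparisons between groups were not used.

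The members and lists were chosen with earlier results of these data known. Named with their values were, per complex, the 3 members with the highest mean and the 1 with the lowest, all alternative subunit genes, the highest and lowest ratio of each comparison, members listed at 0, the core subunits of complex I and those of complex II, plus members past 2-fold by name. Gene order came from a RefSeq table of another assembly, in which all 61 members were found, the 12 ATP5 genes under newer symbols. Promoter and protein sequences were not analysed here. Alternatives were another pseudocount, no minimum, genes at 0 kept, a 4-fold threshold, repeated names summed, 2 rescalings (to the sum without 5 milk protein genes and to the upper quartile) and leaving out 1 member. The values of that member, a complex I gene, are not reported here.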

Additional observations from a re-analysis of the deposited data

How the results depend on the processing

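No paired analysis was possible because the deposited table has 1 value per group, and for the same reason no replicate could be left out. Of 225 recomputed values, 184 stayed within the tolerance (1.5 times, or 0.58 on the log2 scale). With groups rescaled to the sum without milk protein genes, the members' median turned to 0.54 for Kashmiri D250 over D15, 0.14 for Jersey over Kashmiri at D15 and 0.22 at D90, and moved to 0.81 for Kashmiri D250 over D90 and -1.35 for Jersey over Kashmiri at D250. Relative to all genes no median changed sign, but 1 factor per group moves members and all genes nearly alike, so this was nearly fixed in advance.

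Under that rescaling the members 2-fold higher and lower were 4 and 7 for Kashmiri D90 over D15, 14 and 0 for Kashmiri D250 over D90, 14 and 1 for Kashmiri D250 over D15, and 5 and 8 for Jersey D90 over D15. The lower members were 8 for Jersey D250 over D90, 2 for Jersey over Kashmiri at D90 and 42 at D250. At D15 they were 3 higher and 0 lower. The upper quartile gave 3 higher for Kashmiri D90 over D15, 4 higher for Kashmiri D250 over D15, and 5, 2 and 29 lower for Jersey D250 over D90 and Jersey over Kashmiri at D15 and D250. Other counts moved because the threshold itself was stricter. At 4-fold, the higher members were 0 for Kashmiri D90 over D15, Kashmiri D250 over D15, Jersey D90 over D15 and Jersey over Kashmiri at D15, 1 for Jersey D250 over D90 and Jersey over Kashmiri at D90, and 2 at D250. The lower ones were 1 for Kashmiri D90 over D15, Kashmiri D250 over D15 and Jersey over Kashmiri at D90. They were 7 for Jersey D250 over D15 and 0 for the other 5. Of all genes, 5.02%, 2.06%, 4.98% and 3.23% were 4-fold lower in the comparisons named, in that order, and 0.275% to 3.63% in the other 5. The share of all genes 4-fold higher was 3.61% for Jersey D250 over D90 and 6.45% for Jersey over Kashmiri at D90. It was 11% for Jersey over Kashmiri at D250, and 1.74% to 6.38% where 0 higher members are listed. A pseudocount of 0.1 gave 1 higher for Kashmiri D250 over D90 and 2 lower for Jersey over Kashmiri at D15. Leaving out 1 member was chosen after seeing the data and moved no value past the tolerance. Why the sums of the groups differ was not tested.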

Other observations

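The mitochondrially encoded subunits sit in 4 joined entries of the table, so they are given by entry and not by gene. The entry of ND1 and ND2, both of complex I, had 183 FPKM in Kashmiri cattle on D15, 4885 on D90 and 1911 on D250, and in Jersey cattle 291, 2048 and 2421 FPKM. The entry that holds ATP6, ATP8, COX1, COX3, ND3, ND4, ND4L and ND5 among others had 287 FPKM at Kashmiri D15, 414 at Jersey D15 and 11397 at Jersey D250, and was listed at 0 in the other groups. The entries of ND6 and of cytochrome b were also listed at 0 there. Since every cell uses these genes, no ratio is given for the entries listed at 0, and their values were set beside no nuclear subunit.

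Of the regulators of nuclear mitochondrial genes, 1 of 8 compared was 2-fold higher at Kashmiri D90 over D15 (14.5% of all genes), and 0 of 9 at Jersey D90 over D15 (12.6%). That gene was NRF1, which had 2.05, 5.98 and 3.29 FPKM in Kashmiri and 2.17, 3.80 and 4.10 FPKM in Jersey cattle. ESRRA, a nuclear receptor that acts with the PGC1 coactivators, had 28.0, 22.6 and 22.5 FPKM in Kashmiri and 58.8, 48.3 and 69.4 FPKM in Jersey cattle, higher in Jersey cattle at each stage. PPARGC1A was under 1 FPKM in every group. The carrier SLC25A6, which exchanges ADP and ATP across the inner membrane, was above every respiratory chain gene in the 3 Kashmiri groups and at Jersey D15, with 3261, 2283 and 1176 FPKM in Kashmiri and 1786, 787 and 706 FPKM in Jersey cattle.

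For 3 members there is a second entry of the same name. That of ATP5A1 had 0.254, 0.359 and 0.263 FPKM in Kashmiri and 2.65, 14 and 16.2 FPKM in Jersey cattle, while its first entry was between 213 and 349 FPKM.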
